A study of Mus musculus with 6 samples.

Results

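The normal newborn mouse lens was described here from the 3 arrays of wild-type littermates, of 6 arrays in the series; the 3 arrays of Le-AP-2alpha conditional mutant lenses enter no value below. The members were taken by their titles alone. Each wild-type sample was total RNA from lenses dissected on the day of birth (postnatal day 0), amplified, labelled with biotin and hybridised to a one-colour oligonucleotide array. The labels give neither strain nor sex, nor any allele that the wild-type littermates may carry, and do not state how many animals went into each sample. The spread given here is therefore that between these 3 samples and may be technical. A level is the log2 of the deposited intensity. Of 22690 probe sets, 64 array controls were left out, and each of 12393 genes was represented by its brightest probe set. A rank is a rank of signal: probes differ in how strongly they bind their target, so the order of genes by level is not an order by number of transcripts. Percentiles run from 0 for the dimmest gene to 100 for the brightest, and the median gene lay at 5.81. With 1 group there is no comparison between groups and no test; values are mean ± SD over the 3 arrays.

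The lens is built from an anterior epithelium, which divides and keeps the Pax6 and E-cadherin programme of a surface epithelium, and from fibre cells, which elongate, lose their nuclei and organelles and fill with crystallins. Crystallins are soluble proteins packed densely enough to give the lens its refractive power; alpha crystallins are small heat shock proteins, while beta and gamma crystallins share another fold. The whole organ is wrapped in a capsule of basement membrane, has no vessels once the fetal ones regress, and depends on glucose and glutathione from the surrounding fluid.

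The markers of the label were all well above the floor of the arrays. Cryaa, the alpha A crystallin, lay at 13.67, 13.71 and 13.81 in replicates 1, 2 and 3. Mip, the water channel of fibre membranes, lay at 12.07, 13.08 and 12.92. Bfsp1, the beaded filament protein filensin, lay at 12.95, 12.46 and 12.97. By mean level all 3 genes were in the uppermost percent of genes. Mip was lowest in replicate 1, and on that array alone it was not in the uppermost percent. The epithelial markers were lower: Pax6, the transcription factor of eye development, was at 8.69, 10.53 and 10.10, and Cdh1, E-cadherin, at 8.21, 9.14 and 8.89, both lowest in replicate 1. Pax6 ranked at percentile 89.1 and Cdh1 at 80.9.

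Replicate 1 stood apart from the other arrays. Across probe sets, the Pearson correlation was 0.926 between replicates 1 and 2, 0.945 between replicates 1 and 3 and 0.980 between replicates 2 and 3. The array medians were close, at 5.19, 5.20 and 5.24. The floor was also alike: 27 probe sets for bacterial RNA had medians of 2.75, 2.53 and 2.64, and 25.6% of genes had a mean level at or below the highest of them, 3.42. RMA, named for these data, normalises by quantiles, which makes the array medians alike and bears on the floor too. Neither likeness therefore tells how well the arrays agree. The 3′ minus 5′ difference of the Actb control probe sets was 1.54, 1.24 and 2.17, and that of the Gapdh control was 1.07, 0.73 and 1.20, with replicate 1 between the others in both. For pyruvate carboxylase it was 1.49, 0.50 and 0.47, highest in replicate 1, and for the transferrin receptor 2.13, 3.67 and 1.69. For 18S ribosomal RNA it was 2.12, 1.14 and 1.71, and the middle 18S probe set lay at 13.35, 12.98 and 12.64, both highest in replicate 1. Their part in the difference between arrays was not tested. Leaving out replicate 1 moved the median percentile of no list or family by more than 6.47 points (annexins), among 73 examined.

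Crystallins filled the head of the ranking. Of the 14 alpha, beta and gamma crystallins measured under their own symbol, 9 were among the 10 brightest genes, 11 among the 25 brightest and 12 among the 50 brightest. Together they made up 3.21%, 3.15% and 3.69% of the summed linear signal of all genes in replicates 1, 2 and 3, or 3.35 ± 0.29%. The sum takes the brightest probe set of each gene and leaves out probe sets with several or no symbols. It is a share of signal and does not give the share of crystallins in lens RNA. The brightest hybridisation control, a bacteriophage cre sequence added to the sample, lay at 14.54 ± 0.02, above every crystallin.

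Among the beta crystallins, the major water-soluble proteins of the fibre cells, Cryba1 was the brightest gene of all, at 13.90, 13.97 and 13.96. Cryba2 followed at 13.82, 13.91 and 13.97. Crybb3 lay at 13.75, 13.53 and 13.80, Crybb1 at 13.63, 13.46 and 13.88 and Cryba4 at 13.62, 13.40 and 13.70, each lowest in replicate 2. Crybb2 was the exception in level and spread. It lay at 12.10, 12.37 and 13.53, so that replicate 3 was more than 1 log2 unit above the others, and its mean of 12.67 ± 0.76 was the lowest of the 6 beta crystallins. In the mouse, Crybb2 is known as the beta crystallin that accumulates mainly after birth.

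The 6 measured gamma crystallins, proteins of the fibre cells of the lens core, had a median percentile of 99.86. Cryga lay at 13.78, 13.46 and 13.91, with replicate 2 lowest. Crygd lay at 13.31, 13.83 and 13.83, with replicate 1 lowest and an SD of 0.30, the largest among the 25 brightest genes. Crygs, the member made later and in outer fibres, was at 13.24, 13.32 and 13.61, and Crygb at 13.30, 13.27 and 13.42. Crygf was at 13.10 ± 0.35 and Crygn at 12.79 ± 0.42. Crygf was read by a probe set whose probes may also bind related sequences, and gamma crystallins are near-identical in parts, so their separate levels are uncertain. Crygc and Cryge were not analysed here as single genes.

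Both alpha crystallins were bright, and the other small heat shock proteins ranked lower. Cryab, the alpha B crystallin, which the epithelium also makes, lay at 13.35, 13.68 and 13.69, lowest in replicate 1. Of the other members of the same list, Hspb3 was highest, at 8.42 ± 0.24. Hspb1, a stress-induced chaperone of many tissues, lay at 6.49, 6.24 and 9.43, with replicate 3 far above the others. Hspb7, known from heart and muscle, was at 2.99 ± 0.26, within the range of the bacterial controls. Enzyme-related crystallins ranked lower than the main families: Cryz was at 9.81 ± 0.24, Cryzl1 at 8.64 ± 0.28, Crym at 4.61, 7.77 and 7.56, and Cryl1 at 4.66 ± 0.67.

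The sequences upstream of the crystallin genes are shown for 6 of them because these genes share the top of the ranking and differ in their upstream letters. They come from RefSeq, build GRCm38.p6, and are the 120 bases before the annotated start, written 5′ to 3′ on the strand of the gene: Cryba1 at chr11:77725294-77725413 (minus strand), Crybb1 at chr5:112255700-112255819 (plus strand), Crygs at chr16:22811411-22811530 (minus strand), Cryaa at chr17:31677811-31677930 (plus strand), Crygd at chr1:65063441-65063560 (minus strand) and Crygf at chr1:65926402-65926521 (plus strand). Capitals mark TATAAA, the core letters of a TATA box, searched on the strand of the gene, and TGCTGA or, on the other strand, TCAGCA, the core letters of a Maf recognition element. These motifs cannot overlap one another.
Cryba1: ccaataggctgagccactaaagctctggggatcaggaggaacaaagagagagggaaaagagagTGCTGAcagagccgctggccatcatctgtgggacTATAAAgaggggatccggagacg
Crybb1: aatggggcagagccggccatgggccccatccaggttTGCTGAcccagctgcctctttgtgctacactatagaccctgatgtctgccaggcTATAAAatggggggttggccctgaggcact
Crygs: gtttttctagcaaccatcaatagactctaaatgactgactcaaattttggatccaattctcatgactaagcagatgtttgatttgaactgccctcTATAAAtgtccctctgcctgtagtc
Cryaa: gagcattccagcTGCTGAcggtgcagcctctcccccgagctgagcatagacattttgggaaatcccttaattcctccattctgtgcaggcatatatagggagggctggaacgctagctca
Crygd: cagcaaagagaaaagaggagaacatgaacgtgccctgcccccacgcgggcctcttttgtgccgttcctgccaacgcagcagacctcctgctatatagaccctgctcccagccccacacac
Crygf: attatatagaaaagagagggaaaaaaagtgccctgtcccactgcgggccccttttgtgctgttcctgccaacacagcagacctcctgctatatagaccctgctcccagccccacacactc

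Cryba1 and Crybb1 carried both motifs in these windows, with TATAAA beginning 23 and 30 bases before the start and TGCTGA beginning 57 and 84 bases before it. Crygs carried TATAAA 25 bases before its start, and Cryaa carried TGCTGA 108 bases before its start. Crygd and Crygf carried neither, and shared a run of 45 identical bases. Only the exact letters TATAAA were searched for, so other forms of a TATA box were not counted. The windows of Cryaa, Crygd and Crygf held TATATA, which was not marked. Lack of a match is thus not lack of a TATA box. Over the whole RefSeq window of 250 bases before to 50 after the start, 13 of the 14 crystallins had an entry, all but Cryab. Of these, 4 (30.8%) held TATAAA and 9 (69.2%) held TGCTGA or TCAGCA, against 8.32% and 19.5% of all 32851 windows. The median ratio of observed to expected CpG was 0.226 in the crystallin windows. It was 0.828 for the 168 of the 200 brightest genes that had an entry and 0.906 for 40 of 46 cytosolic ribosomal protein genes. For 165 of the 200 dimmest genes it was 0.159, and over all the windows 0.384. The crystallin windows thus had a CpG ratio nearer to that of the dimmest genes than to that of the brightest. Among all 12393 genes measured, 9887 (79.8%) had an entry. Their median ratio was 0.706, and 6.88% held TATAAA and 16.4% TGCTGA or TCAGCA. For 158 of the 200 middle genes (79%) the ratio was 0.747. In both groups under 80% of the genes had an entry. The windows of the whole table also include genes not on the array, so their 0.384 is not a reference for measured genes. A match of letters is a description and not a binding site.

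**Figure D1:**
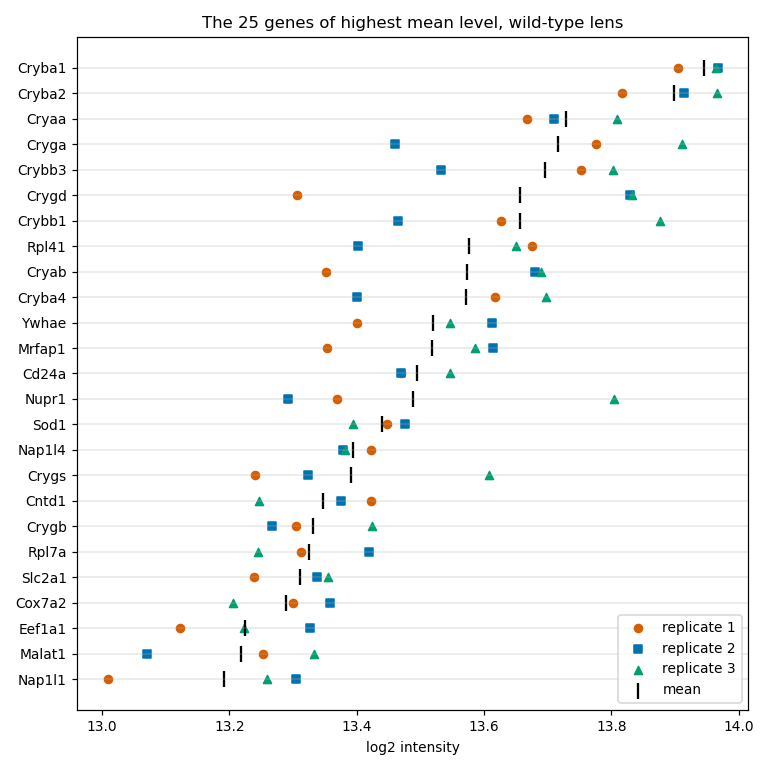
Levels of the 25 brightest genes in the wild-type lens; the x axis is the log2 intensity, circles, squares and triangles are replicates 1, 2 and 3, and bars are the means. Means run from 13.95 for Cryba1 to 13.19 for Nap1l1, and 11 of the 25 are crystallins.

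The order within the 25 brightest genes was finer than the spread between arrays. Of 24 pairs of neighbours in this order, 2 had a gap larger than the larger of their SDs, and the largest gap was 0.17. Beside the crystallins, this group held genes of protein synthesis, energy and stress protection. Rpl41, a ribosomal protein of the large subunit, was at 13.67, 13.40 and 13.65, Rpl7a, another, at 13.33 ± 0.09, and Eef1a1, which brings aminoacyl-tRNA to the ribosome, at 13.22 ± 0.10. Slc2a1, the glucose transporter GLUT1, was at 13.24, 13.34 and 13.36, nearly equal in all arrays. Cox7a2, a subunit of cytochrome c oxidase, was at 13.29 ± 0.08. Sod1, the cytosolic superoxide dismutase, was at 13.45, 13.48 and 13.39, and Nupr1, a small stress-induced nuclear protein, at 13.37, 13.29 and 13.80, with replicate 3 highest. Nap1l4 (13.39 ± 0.02) and Nap1l1 (13.19 ± 0.16) are histone chaperones, Ywhae (13.52 ± 0.11) is a 14-3-3 adaptor, Cd24a (13.50 ± 0.04) is a glycosylated surface protein and Malat1 (13.22 ± 0.13) a nuclear noncoding RNA. Mrfap1 was at 13.52 ± 0.14. Cntd1 was at 13.35 ± 0.09. Cntd1, Rpl41 and Cd24a were read by probe sets that may also bind related sequences, a kind that represented 23.5% of the 200 brightest genes and 3.65% of all genes.

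The 50 brightest genes were largely shared between arrays. Each array's own 50 brightest had 39 in common over all 3 arrays and 63 in their union, with 39 shared by replicates 1 and 2, 44 by 1 and 3, and 43 by 2 and 3. The lowest mean in this group was 12.86, and the 50 genes held 10.2 ± 0.35% of the summed signal. Signal was concentrated in general: the brightest 1239 genes held 66.4 ± 0.48% of it and the upper 6196 genes 97.8 ± 0.15%. Of the 50 brightest probe sets, 31 carried 1 gene symbol, 14 several and 5 none, and those with several or none are in no gene rank.

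Protein synthesis was the other large block at the top. Of 46 cytosolic ribosomal proteins, 36 were in the top 10% of genes and 41 above the median gene, and 14 were among the 50 brightest. Their median level was 12.47 ± 0.13 over arrays, and they held 4.91 ± 0.55% of the summed signal. Rps24, at 13.16 ± 0.03, and Rplp2, at 13.13 ± 0.21, followed Rpl41 and Rpl7a. The dimmest were Rpl3l, a muscle form, at 3.28 ± 0.36, Rpl39l, a testis form, at 3.56 ± 0.91, and Rpl37 at 3.64 ± 0.17. Such levels depend on the probes: for 23 of these genes a probe set built against a single transcript was present, with a median level of 6.83, against 11.94 for the brightest probe set of the same genes. Elongation factors ranked nearly as high, with a median percentile of 98.6 over 11 genes; Eef1a2, the form of neurons and muscle, was their lowest at 5.24 ± 0.36. Initiation factors had a median percentile of 87.3 over 42 genes, led by Eif5a at 12.59 ± 0.09. Mitochondrial ribosomal proteins were lower, at percentile 78.1 over 74 genes, from Mrpl52 at 11.30 ± 0.60 to Mrps5 at 4.83 ± 0.40.

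Energy genes lay in the upper part of the ranking. The 79 subunits of the respiratory chain and ATP synthase had a median level of 10.38 ± 0.38 and held 2.84 ± 0.59% of the summed signal, with 47 of them in the top 10%. After Cox7a2 came Ndufb11, a subunit of complex I, at 12.76 ± 0.49 and Atp5a1, of ATP synthase, at 12.45 ± 0.23. The dimmest were tissue forms: Cox7a1 at 3.63 ± 0.59, Cox8b at 3.67 ± 0.59, both forms of heart and muscle, and Cox8c at 3.80 ± 0.36. Of 18 glycolysis genes, 9 were in the top 10% and 17 above the median gene. Pgk1, phosphoglycerate kinase, lay at 12.80, 12.24 and 11.88, Aldoa, aldolase A, at 11.81, 10.01 and 10.88, and Ldha, lactate dehydrogenase A, at 10.98, 9.30 and 9.97. Replicate 1 was highest for all of these. Over the list, replicate 1 exceeded the mean of the other arrays by a median of 0.93, and by more than 1 in 8 genes; over all genes the median was 0.09 and 10.8% were higher by more than 1. Hk1, a hexokinase, was the dimmest at 4.86 ± 0.95, while Hk2, the hexokinase of insulin-sensitive tissues, lay at 8.96, 9.96 and 9.74.

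Proteasome subunits and chaperones, which degrade and fold proteins, were also bright and even between arrays. The 38 proteasome subunits had a median percentile of 92.7, from Psmd6 at 11.98 ± 0.23 to Psmb9 at 3.36 ± 0.19. Psmb9 and Psmb8, at 4.13 ± 0.26, are subunits of the immunoproteasome, and Psma8, at 4.45 ± 0.26, is a testis form; these 3 were the only subunits below the median gene. The 19 cytosolic chaperones had a median level of 11.09 ± 0.06, led by Tcp1, of the chaperonin ring, at 12.72 ± 0.24, and none lay below Stip1, a co-chaperone, at 8.79 ± 0.34. Of 25 genes of glutathione and antioxidant defence, 8 were in the top 10% and 22 above the median gene. After Sod1 came Gstp1, a glutathione transferase, at 12.33, 11.88 and 12.43, Prdx2, a peroxiredoxin, at 11.75 ± 0.24 and Gpx1, glutathione peroxidase, at 11.25 ± 0.35. Gsr, the reductase that regenerates glutathione, lay at 4.19, 10.21 and 9.50, far lower in replicate 1. Sod3, the extracellular superoxide dismutase, was the dimmest at 3.13 ± 0.04.

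Genes of the fibre skeleton and membrane were mostly in the upper part of the ranking. All 8 cytoskeleton genes and 5 of 7 membrane genes were above the median gene. The 8 measured fibre cytoskeleton genes had a median level of 11.31 ± 0.44 and a median percentile of 96.7. Vim, the intermediate filament vimentin, was at 12.94, 12.77 and 12.92, level with Bfsp1. Sptbn1 and Sptan1, the spectrins beneath the membrane, were at 12.79 ± 0.18 and 11.43 ± 0.68, and Tmod1, which caps actin filaments, at 11.07 ± 0.42. Nes, nestin, was the dimmest of them at 8.13, 6.16 and 6.54, with replicate 1 highest. Among fibre membrane genes, Ncam1, an adhesion molecule, was at 12.17 ± 0.08 and Cadm1, another, at 11.66 ± 0.25. Cdh2, the N-cadherin that joins fibre cells, lay at 8.68, 11.09 and 11.14, with replicate 1 more than 2 log2 units below the others. Gja3, the fibre connexin 46, lay at 10.04, 9.57 and 8.95. Aqp5 was near the median gene, at 5.36 ± 0.44, and the cystine transporter gene Slc7a11 at 3.48 ± 0.53. Of the fibre membrane list, 7 genes were measured.

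Genes tied to the loss of nuclei and to RNA granules of fibre cells had a median percentile of 89.5 over 9 genes. Celf1, an RNA-binding protein, was at 12.41, 12.30 and 12.44, and Tdrd7, a component of RNA granules whose loss causes cataract, at 10.84, 11.31 and 11.61. Caprin2, another RNA-granule protein, lay at 9.39, 11.21 and 10.98, lowest in replicate 1. Dnase2b, the nuclease that digests fibre cell DNA, lay at 10.10, 9.20 and 10.19, and Hsf4, the heat shock factor of the lens, at 8.10, 7.02 and 8.78; replicate 2 was lowest for both. Fyco1, an adaptor of vesicle transport, was even at 8.18 ± 0.13. The cyclin-dependent kinase inhibitors of differentiating fibres were both above the median gene: Cdkn1b (p27) was at 10.42, 10.55 and 9.90, and Cdkn1c (p57) at 10.11, 8.49 and 9.88.

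Lens epithelium genes spread from the top of the ranking to the floor. Of 20 measured, 8 were in the top 10% and 18 above the median gene, with a median percentile of 85.1. After Cryab came Sparc, a matrix-binding glycoprotein, at 12.85, 12.99 and 13.00, and Igfbp7, which binds insulin-like growth factors, at 12.11, 12.09 and 12.48. Clu, the extracellular chaperone clusterin, lay at 12.27, 11.20 and 12.04. Pdgfra, the receptor through which PDGF drives lens growth, was at 9.05, 9.97 and 9.87. At the lower end, Foxe3, the forkhead factor of the lens epithelium, lay at 4.84, 4.0 and 4.37, percentile 37.2. Cdo1, cysteine dioxygenase, was the dimmest of the list at 2.94 ± 0.37. Foxe3 was thus below the median gene in all 3 arrays.

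Transcription factors of the lens were found in the middle of the ranking. Of 23 measured, 14 were above the median gene and 0 in the top 10%, with a median percentile of 52.4, near that of all genes. Pax6 was the brightest, followed by Six3, another regulator of lens induction, at 9.14, 8.32 and 10.09. Tfap2a, which encodes AP-2alpha, lay at 8.36, 9.26 and 9.56, lowest in replicate 1. Its relatives Tfap2c, at 5.50, 7.51 and 8.08, and Tfap2b, at 3.95, 6.10 and 6.34, had the same order of arrays. Prox1, the homeobox factor of fibre differentiation, was at 8.08, 8.65 and 9.01, and Sox2, a partner of Pax6, at 8.04, 8.78 and 8.78. Maf, the activator of crystallin genes in fibres, was at 4.47, 4.95 and 3.85, whereas its small partners Mafg and Mafk were at 8.87 ± 0.40 and 5.82 ± 0.12. Pitx3, mutated in aphakia, was at 6.37, 4.91 and 6.78. Eya1 (3.29 ± 0.37) and Sox1 (3.20 ± 0.18), the latter a regulator of gamma crystallin genes, were within the range of the bacterial controls.

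Other probe sets of the markers gave other levels. The second Mip probe set lay at 8.55, 11.47 and 11.40, lowest in replicate 1 as the first. Of the 4 other Pax6 probe sets, 2 had the same order of arrays as the brightest, at 6.15, 7.72 and 6.84 and at 3.75, 6.26 and 4.60. Another Pax6 probe set ran the other way, at 7.30, 6.27 and 6.30, with replicate 1 highest, and the dimmest lay at 3.15, near the floor. Bfsp1, Cdh1 and Cryaa each had 1 probe set.

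Genes of the lens capsule, the basement membrane made by the epithelium and the fibres, included some of the brightest in the lens. Col4a1 and Col4a2, which form the common collagen IV trimer, lay at 12.73, 11.92 and 12.23 and at 12.30, 11.44 and 11.88. Both had replicate 1 highest and replicate 2 lowest. Col4a5 lay at 7.70, 11.11 and 10.88, with replicate 1 more than 3 log2 units below the others, and its partner Col4a6 at 9.09 ± 0.38. Col4a3, at 2.94, 5.98 and 5.03, and Col4a4, at 4.74 ± 0.07, which form the trimer of mature kidney and later capsule, were below the median gene. Among the listed basement membrane linkers and proteoglycans, Nid1, which links laminin to collagen, was at 11.63 ± 0.42. The heparan sulphate proteoglycans Agrn and Hspg2 were at 10.48 ± 0.52 and 9.45 ± 1.05, and Sdc1, one of the cell surface, at 11.77 ± 0.40. Of 13 such linkers and proteoglycans 12 were above the median gene; Nid2 was not, at 5.01 ± 0.21.

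Laminin chains, the other network of the capsule, ranked lower, with a median percentile of 59.9 over 10 genes and none in the top 10%. Lamb1 was highest, at 10.39, 8.66 and 9.54, and Lama1, the alpha chain of early basement membranes, lay at 8.68, 6.48 and 7.69, both lowest in replicate 2. Lamc1, which forms a laminin with them, lay at 6.56, 9.76 and 9.61, lowest in replicate 1. The chains of the skin laminin were dim: Lama3 was at 4.0 ± 0.32 and Lamb3 at 2.86 ± 0.20. Of 14 integrin subunits, the receptors for these proteins, 2 were in the top 10%: Itga6, the laminin receptor chain, at 10.90, 11.65 and 11.80, and Itgav at 11.38 ± 0.13. Itgb1, the beta chain that pairs with Itga6, lay at 5.89, 8.39 and 7.55, lowest in replicate 1.

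Several junction genes were low in replicate 1 and others even. Ctnnb1, beta-catenin, was even at 12.81, 12.90 and 12.91, and Ctnna1, alpha-catenin, at 10.56 ± 0.27. Ctnnd1, the p120 catenin that holds cadherins at the surface, lay at 4.32, 8.53 and 8.18, and Jup, plakoglobin, at 5.48, 8.32 and 7.57. Of 12 cadherins and catenins, 5 were lower in replicate 1 by more than 1 than the mean of the others and 1 higher, against 12.9% and 10.8% of all genes. Cdh5, the vascular cadherin, was the dimmest at 3.44 ± 0.48. Among 9 gap junction connexins, Gja1 (connexin 43, the connexin of the epithelium) lay at 11.84, 12.52 and 12.40, followed by Gja3, and 6 were below the median gene.

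Receptors and targets of FGF signalling were spread over the ranking, with 8 of 14 above the median gene, and several were lower in replicate 1. In the FGF pathway, which drives fibre differentiation, the receptors Fgfr2 and Fgfr3 lay at 9.42, 10.93 and 10.40 and at 9.95, 9.20 and 9.22, Fgfr1 at 7.03 ± 0.44 and Fgfr4 near the floor at 3.13 ± 0.10. Ptpn11, the phosphatase Shp2 that relays the signal, was at 11.13 ± 0.27. The feedback inhibitors and targets lay lower in replicate 1: Spry2 was at 8.26, 11.01 and 10.74, Dusp6 at 6.65, 9.20 and 9.30, and Etv5 at 3.95, 6.53 and 5.68. Over 14 genes, replicate 1 was below the mean of the others by more than 1 in 7 and above in 0. The shares over all genes were 12.9% and 10.8%. These shares cover all levels, and spread depended on level. A range over 1 was seen in 6.47% of genes below 4 and in 58.3% of genes between 6 and 8. FGF ligands as a family had a median percentile of 21.6 over 22 genes, of which 5 were above the median gene, with Fgf12, an intracellular member, highest at 8.86 ± 0.39.

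Many BMP and TGF-beta genes were also lower in replicate 1. The ligand Tgfb2 lay at 9.86, 11.77 and 11.42, while Tgfb1 was at 3.04 ± 0.22 and Bmp4, the ligand of lens induction, at 6.59, 6.62 and 6.81. The receptor Bmpr1a lay at 8.84, 10.35 and 9.88 and the mediator Smad4 at 9.25, 10.17 and 9.97. The target Id2 lay at 8.74, 11.21 and 11.14 and Id1 at 5.61, 8.90 and 8.07. Of 19 genes, 15 were above the median gene, 10 were lower in replicate 1 by more than 1 and 1 was higher, with a median difference of -1.02. Over all genes 12.9% were lower by more than 1 and 10.8% higher, with a median of 0.09.

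Of 19 genes in the Wnt list, 13 were above the median gene, while the Wnt ligands as a family had a median percentile of 21.8 over 19 genes, with 4 above it. The secreted proteins Dkk3, at 13.01, 13.16 and 12.94, and Sfrp1, at 12.31, 12.60 and 12.20, the latter an inhibitor of Wnt ligands, were in the uppermost percent of genes by mean level. The ligand Wnt7a was at 9.91, 9.11 and 9.08 and the receptor Fzd6 at 7.79, 9.64 and 9.42. Axin2, a target of the pathway, was at 8.26 ± 0.40. The transcription factor Lef1 was the dimmest at 2.84 ± 0.02. In the Notch list, the receptors Notch2 and Notch1 were at 10.57 ± 0.37 and 9.48 ± 0.96. The ligand Jag1, needed for fibre differentiation, lay at 6.57, 7.95 and 7.06, and the effector Rbpj at 5.69, 8.43 and 7.60, lowest in replicate 1. The target Hey1 was at 9.08, 10.78 and 10.28, while Hey2 lay at 3.0, 7.36 and 7.28. Hey2 was at the floor on replicate 1 and above the median gene on the others.

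Genes of proliferation were mostly above the median gene, with some inhibitors near the floor. The cyclins Ccnd1 and Ccnd2, which drive entry into the cell cycle, lay at 11.28, 11.93 and 11.83 and at 11.75, 11.27 and 10.88. Of 10 D cyclins and inhibitors 5 were above the median gene and 2 at or below the highest bacterial control. Cdkn2a, an inhibitor known from senescent cells, was at 2.86 ± 0.06. Of 20 DNA replication genes, 17 were above the median gene, led by Fen1, a flap nuclease, at 11.11 ± 0.38 and Rrm2, of ribonucleotide reductase, at 9.28, 10.87 and 11.48; Tyms was the dimmest at 3.38 ± 0.19. Of 20 cell division genes, 16 were above the median gene, from Birc5, survivin, at 9.92 ± 0.62 to Plk1, a mitotic kinase, at 4.82 ± 0.78. Mki67, the Ki-67 antigen, was at 9.70, 8.09 and 8.88 and Cdk1, the mitotic kinase, at 6.05, 7.65 and 8.26; replicate 1 was highest for the first and lowest for the second. Imprinted growth genes, active in fetal tissues, had a median percentile of 87.0 over 13 genes, or 66.5 when the probe sets of each gene were averaged. Ndn, necdin, was at 12.56 ± 0.33, Igf2 at 9.56, 9.49 and 9.55, and Dlk1 at 2.82 ± 0.20.

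**Figure D2:**
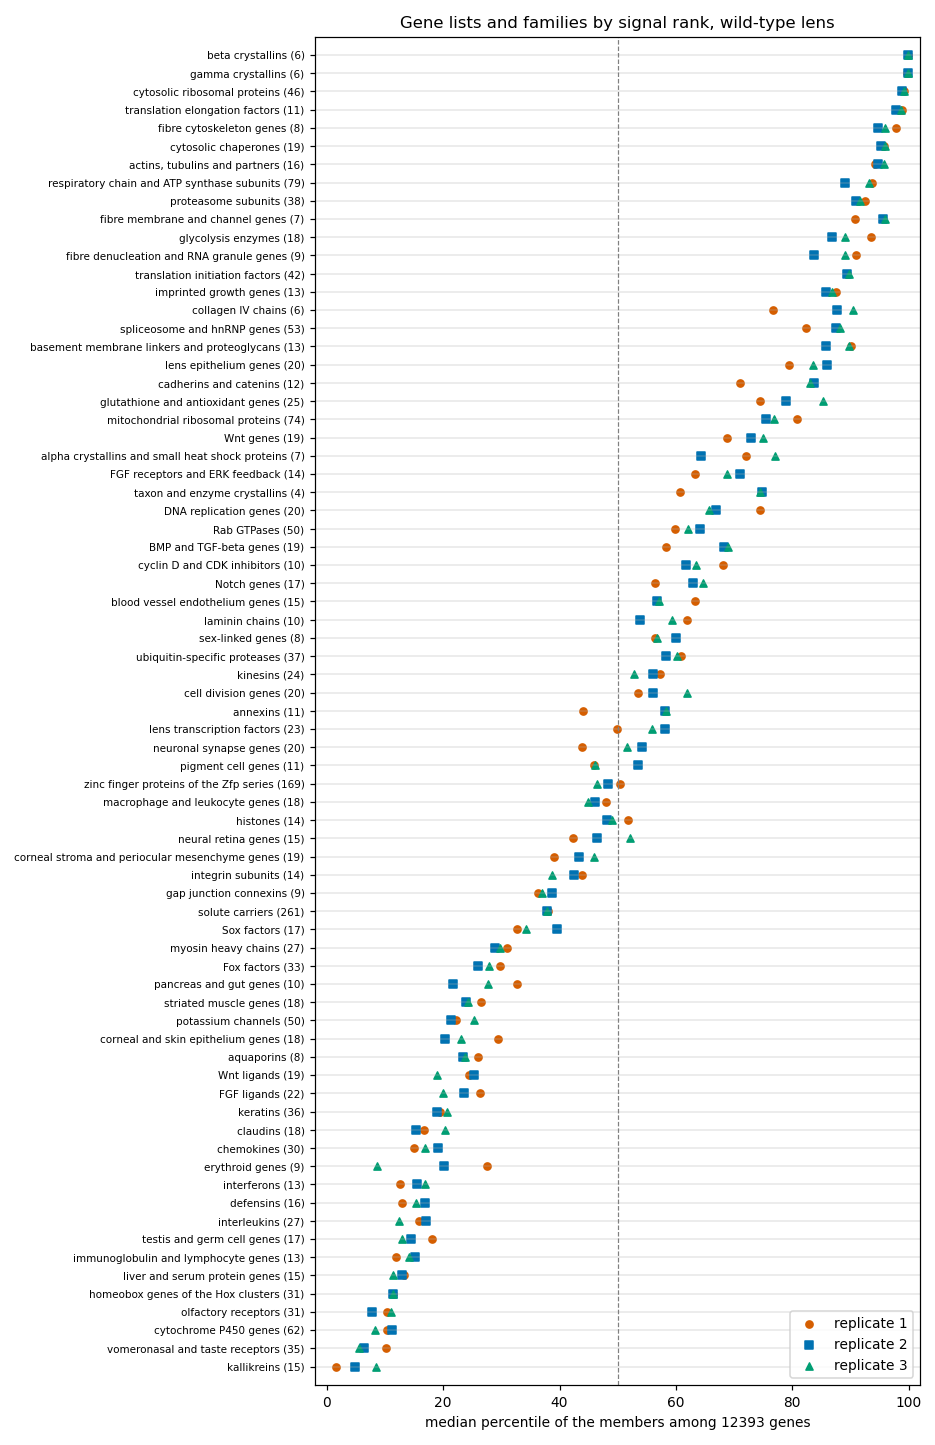
Median percentile of each gene list or family in each replicate; the x axis is the percentile among 12393 genes, the number of measured genes stands in brackets, and the dashed line marks the median gene. Crystallins and ribosomal proteins lie at the right end and kallikreins and chemosensory receptors at the left, and replicates lie close for most families.

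Families of many kinds lay between the extremes. Of 73 lists and families, 10 had a median in the top 10%, 15 between percentiles 40 and 60, 15 below percentile 20 and 5 below percentile 10. The 169 zinc finger proteins of the Zfp series had a median percentile of 47.2, from Zfp106 at 11.11 ± 0.22 to Zfp936 at 2.40 ± 0.20, and 73 were above the median gene. Rab GTPases of vesicle traffic lay at percentile 65.2 over 50 genes, led by Rab7 at 11.84 ± 0.10. Ubiquitin-specific proteases lay at 58.7 over 37 genes and kinesins, the microtubule motors, at 55.6 over 24. Of 261 solute carriers, 95 were above the median gene, 16 in the top 10%, and 79 at or below the highest bacterial control, a level that 3170 of all 12393 genes did not exceed. After Slc2a1 came Slc1a4, a neutral amino acid transporter, at 12.10 ± 0.22, and the dimmest was Slc10a2, the bile acid transporter of the ileum, at 2.43 ± 0.18.

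Single genes in the middle varied widely between arrays. The genes nearest the median gene were Tmem159 at 6.07, 5.63 and 5.74, Cwf19l1, Slc35a1 at 4.09, 6.92 and 6.44, Polr3gl at 6.79, 3.66 and 6.99, Pdk2, Fancc, Slc38a5, Acot8, Rpp25l and Ubald1. Slc35a1, the transporter of CMP-sialic acid, was low in replicate 1, and Polr3gl, a subunit of RNA polymerase III, was low in replicate 2. Slc38a5, a glutamine transporter, lay at 7.19, 5.18 and 5.06, high in replicate 1, and Pdk2, a kinase of pyruvate dehydrogenase, at 7.0, 4.89 and 5.55. Their SDs ran from 0.23 for Tmem159 to 1.87 for Polr3gl. The window between percentiles 45 and 55 holds 1239 genes; 216 genes lay in it on all 3 arrays, 648 on both replicates 2 and 3, and 364 on both replicates 1 and 2.

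At the low end stood families of other organs. The 15 kallikreins, secreted proteases, had a median percentile of 4.1 (1.58, 4.91 and 8.47 on the single arrays, and 2.34 without replicate 2), and 14 of them were at or below the highest bacterial control; Klk8, a kallikrein of brain and skin, was the exception at 5.78 ± 0.61. The 35 vomeronasal and taste receptors had a median percentile of 5.1, and the 62 cytochrome P450 genes of 9.3, where Cyp4v3, whose human counterpart is mutated in a retinal dystrophy, reached 8.85 ± 0.20. All 31 olfactory receptors were at or below the highest bacterial control, the brightest being Olfr544 at 3.31 ± 0.39, and 27 of 31 Hox genes were too. Keratins had a median percentile of 19.6 over 36 genes and claudins of 18.2 over 18. The lowest genes were Krtap9-3, a hair keratin-associated protein, at 2.08, 2.25 and 2.30, Hrnr, of the skin barrier, Pdcl2, Gzmc, a granzyme, Kcnq5, a neuronal potassium channel, Sval2, the cytokine Il6 at 2.32, 2.40 and 2.22, Hormad1, of meiotic chromosomes, and the natural killer cell receptors Klrc3 and Klra2. Levels of these genes were between 2.21 and 2.32. Each array's own 50 dimmest genes had 2 in common over all 3 arrays.

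Markers of cells that a dissected lens can carry with it were listed at levels from the floor to above the median gene. In bulk tissue, few cells of a type and little RNA per cell cannot be told apart. Of 15 neural retina genes, 7 were above the median gene, led by Neurod1, a neuronal transcription factor, at 7.76, 9.21 and 9.92 and Otx2 at 7.28, 9.17 and 9.64. The photoreceptor genes Gnat1, rod transducin, at 3.02 ± 0.27, and Rcvrn, recoverin, at 2.91 ± 0.17, were near the floor, while Sag, arrestin, lay at 5.53, 5.67 and 7.96, highest in replicate 3. Replicate 1 was below the mean of the others by more than 1 for 8 of the 15 genes and above for 0, with a median of -1.09. Among all genes, 12.9% were below and 10.8% above by more than 1, with a median of 0.09. Of 20 neuronal synapse genes 10 were above the median gene, with Stmn3 highest at 9.68 ± 0.16 and Snap25, of vesicle fusion, at 4.98, 9.30 and 9.48. The part of retinal or neuronal RNA in the difference between arrays was not tested.

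Blood vessel genes had a median percentile of 61.3 over 15 genes: Tek, the angiopoietin receptor, was at 9.26, 10.19 and 9.86 and Flt1, a VEGF receptor, at 9.16, 9.38 and 8.17, while Pecam1 was at 4.0 ± 0.49. At birth the mouse lens is still wrapped in the vessels of the tunica vasculosa lentis. Macrophage genes lay at percentile 46.9 over 18 genes, with Csf1r, the receptor of the lineage, at 8.06, 6.26 and 6.93 and Ptprc (CD45) at 3.36 ± 0.13. Pigment cell genes lay at percentile 47.7 over 11 genes, of which 5 were above the median gene. Mitf was the brightest of them at 11.47 ± 0.12 and Rpe65 the dimmest at 2.94. The pigment enzyme genes Tyrp1 and Tyr were at 7.71 ± 0.28 and at 3.93, 6.29 and 4.36. Corneal stroma and mesenchyme genes lay at percentile 45.1 over 19 genes, from Ogn, osteoglycin, at 10.96 ± 0.11 to Lum, lumican, at 2.83 ± 0.29; Kera, keratocan, was at 2.91 ± 0.19.

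Corneal and skin epithelium genes were dim, with 2 of 18 above the median gene. Krt12, the keratin of the cornea, was the lowest at 2.57 ± 0.21, and Krt14 lay at 3.05 ± 0.11; Perp, a desmosome protein, was the brightest at 8.61, 10.18 and 10.48. Of 18 striated muscle genes 0 were above the median gene, and Myh8, the perinatal myosin, lay at 2.52 ± 0.11. Of 9 red cell genes, 3 were higher in replicate 1 than the mean of the others by more than 1 and 1 was lower, against 10.8% and 12.9% of all genes. The 3 higher genes were Alas2, of haem synthesis, at 6.99, 3.63 and 2.76, Hbb-y, an embryonic globin, at 6.71, 3.54 and 2.25, and Slc4a1, the band 3 protein, at 4.98, 3.34 and 3.58. Replicate 1 was highest for all 3, while Hba-a1, an adult globin, was near the floor at 2.83 ± 0.37. Of 14 red cell genes listed, 9 were measured, and probe sets with several symbols named no gene. The level of Hba-a1 therefore need not stand for all adult globin RNA. Bpgm, at 10.65 ± 0.64, was the only gene of this list above the median gene. Over the 9 genes measured, the part of red cells in the difference between arrays was not tested. Liver, lymphocyte and testis genes, listed for other organs, had median percentiles of 11.2, 13.3 and 13.6. Among 10 pancreas and gut genes, 2 were above the median gene: Cela1, an elastase, at 9.89, 8.41 and 9.47, and Gcg, which encodes glucagon. Of the other 8, Sst, somatostatin, was highest at 4.16 ± 0.14.

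The Y-linked genes and Xist did not separate the arrays. Eif2s3y and Kdm5d, on the Y chromosome, lay at 9.77, 10.61 and 10.55 and at 7.54, 7.97 and 7.57, above the median gene in all 3. Xist, the RNA of the inactive X, lay at 3.69, 3.16 and 3.20, close to the floor in each. Usp9y, also on the Y chromosome, was at 2.75 ± 0.10. Eif2s3x, the X-linked counterpart of Eif2s3y, lay at 6.70, 10.68 and 10.21, low in replicate 1.

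**Figure D3:**
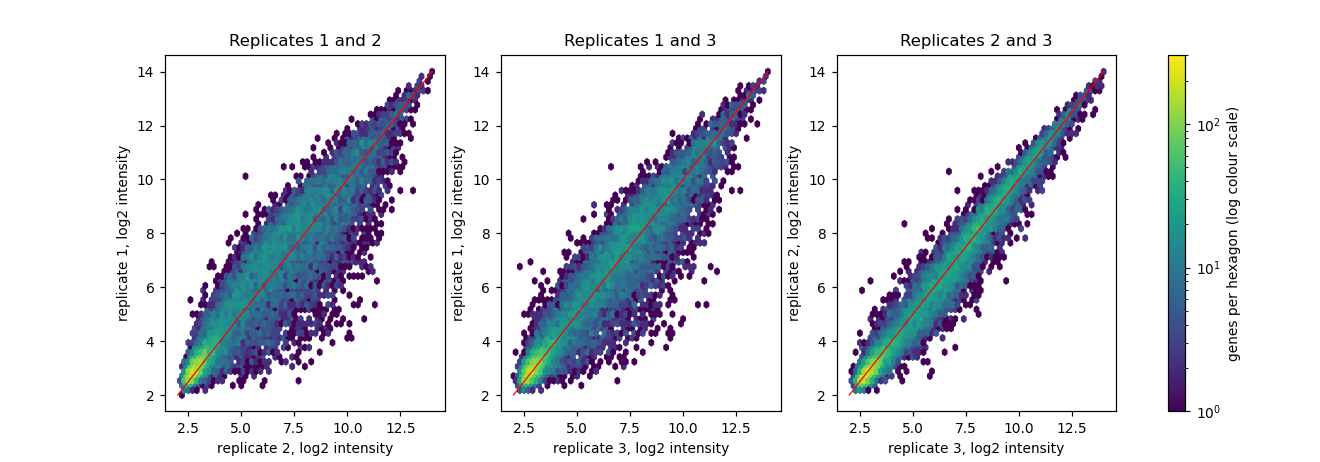
Level of each gene in one replicate against another, as density of 12393 genes in hexagons with a log colour scale; axes are log2 intensity and the red line marks equal levels. The cloud is widest for replicates 1 and 2 (r = 0.926 over probe sets) and narrowest for replicates 2 and 3 (0.980).

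Agreement between replicates depended on the level. Over all genes the median SD was 0.37 over 3 arrays. Without replicate 1 it was 0.21, but an SD over 2 arrays is not the same measure as one over 3. Leaving out each array in turn gave median SDs over 2 arrays from 0.21 to 0.38. Genes below 4, a group of 4113, had a median SD of 0.20, those between 6 and 8 of 0.60 and the 182 genes at 12 or above of 0.18. Of the genes below 4, 3170 lay at or below the highest bacterial control. A small SD there does not show that levels repeat: each array's own 50 dimmest genes had 2 in common over all 3 arrays. A range over 2 was seen in 15.8% of genes between 6 and 8 and in 0 genes at 12 or above. All 14 crystallins lie in this last group. The share of genes that differed by more than 2 was 7.09% between replicates 1 and 2, 4.66% between 1 and 3 and 0.428% between 2 and 3. Among probe sets above the median level the correlations were 0.776, 0.840 and 0.949.

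**Figure D4:**
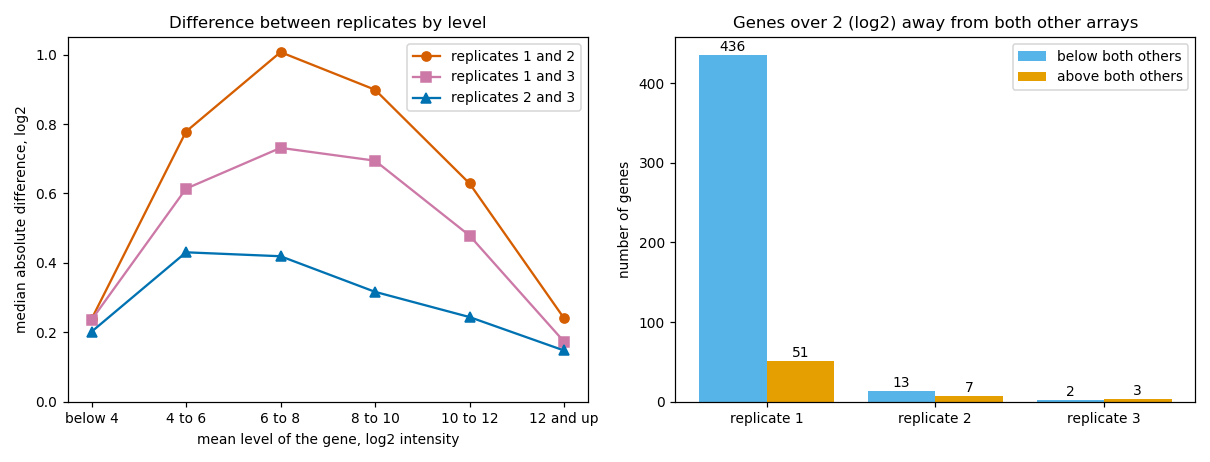
Left, median absolute log2 difference between 2 replicates for genes in 6 bands of mean level; right, number of genes more than 2 log2 units below or above both other arrays. Differences that involve replicate 1 peak at levels of 6 to 8, and replicate 1 has 436 genes below both others against 13 and 2 in replicates 2 and 3.

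Genes apart from both other arrays were mostly low in replicate 1. There 436 genes (3.52%) were more than 2 below both others and 51 (0.412%) above both; replicate 2 had 13 and 7, and replicate 3 had 2 and 3. All 12 genes with the largest range among those above the median level were of this kind. The filter used the mean over the 3 arrays. It passes genes low on 1 array more readily than genes high on only 1, so it favours this direction. Gsr ranged over 6.02. Bpnt1, a nucleotide phosphatase, lay at 5.36, 11.37 and 11.09, Sat1, of polyamine breakdown, at 7.80 ± 3.29, and Pfn1, the actin-binding profilin, at 4.86, 10.82 and 9.97. Nfia, a transcription factor, lay at 4.34, 10.16 and 9.26 and Rb1, the retinoblastoma protein that holds lens fibres out of the cell cycle, at 3.18, 8.36 and 7.79. The others were Zcchc14, Rhbdl3, Pfdn2, Smim14, Cmpk1 and Arrdc4. Without replicate 1, the mean of Gsr was 9.85 and that of Rb1 8.08, against 7.96 and 6.44 with it.

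Other probe sets of the same genes often did not repeat the difference. Of the 436 genes, 121 had a second probe set above the median level. It was lower in replicate 1 by more than 1 in 44 of the 121 and by more than 2 in 29, and had the opposite sign in 49, with a median of -0.39. Over all genes, at all levels, 12.9% were lower in replicate 1 by more than 1, with a median of 0.09. Smim14 was repeated, with a second probe set at 4.54, 8.27 and 8.10, and so was Zcchc14, at 5.57, 8.01 and 7.15. Bpnt1 was not: its second probe set lay at 7.65, 6.72 and 6.29, highest in replicate 1. At the other end, Cfl1, the actin-severing cofilin, lay at 13.12, 13.11 and 13.11 and Vdac1, the mitochondrial pore, at 13.07, 13.06 and 13.07. Tacc3, of the spindle, Hspa14, a chaperone of the ribosome, and Snrpa1, of the U2 particle, had ranges nearly as small at lower levels.

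**Figure D5:**
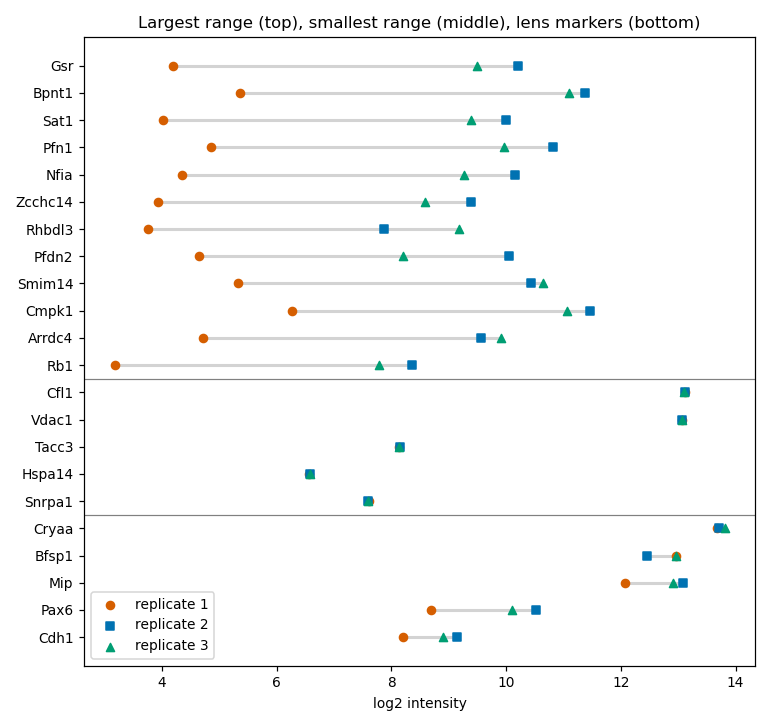
Log2 intensity in each replicate of the 12 genes with the largest range, the 5 with the smallest range (both among genes above the median level) and the 5 lens markers; grey lines join the lowest and highest array. Replicate 1 is lowest for all 12 genes of large range, and among the markers Pax6 and Mip have the widest ranges. The filter on mean level favours genes low on 1 array over genes high on only 1.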

How the data were processed

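Gene expression in dissected newborn lenses was measured on one-colour arrays. The deposited intensities are linear, 1 column per array, with wild-type medians of 36.5 to 37.8; RMA, which corrects background, normalises by quantiles and summarises probes, is named per the submitters' processing notes without version. The step from RMA to the linear scale and the genome build are not given in the sources used here. Quantile normalisation makes array medians alike and can compress dim probe sets.

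The log2 of the deposited intensities was taken with no pseudocount (0) and no further normalisation. Symbols came from a platform annotation of 2016: 20380 probe sets had 1 symbol, 691 several and 1555 none; 20351 matched a RefSeq gene table, which changed 0 symbols. Only probe sets with 1 symbol named a gene. The number of arrays limits the precision. No pair of arrays had more than 0.133% equal values, and the number of unlabelled columns was 0.

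Named genes were the 25 brightest, the 10 nearest the median, the 10 dimmest, the 12 of largest and 5 of smallest range among genes above the median gene, the markers, members of lens, matrix, signalling, other-cell and sex lists, and the highest and lowest of other lists, leaving out clone and model names; other members of the translation, energy, proteasome and antioxidant lists were chosen after their values were seen. Of 652 list entries, 581 could be measured. The arrays and lists were chosen with earlier results of these data known. Promoter windows came from RefSeq (GRCm38.p6) by gene ID, and by symbol where the ID gave no match. Python 3.11.15, numpy 2.4.6, pandas 2.3.3 and matplotlib 3.10.9 were used, and the ranking and spread were tested on simulated data. Alternatives were median centring, quantile normalisation, a pseudocount of 16, averaging the probe sets of each gene, only single-transcript probe sets, leaving out dim probe sets, Spearman correlation, and leaving out each array.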

Additional observations from a re-analysis of the deposited data

How the results depend on the processing

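Among the 50 brightest genes and the lists, the largest moves came with the choice of probe sets; among the 50 dimmest, they came with leaving out an array. With only probe sets built against a single transcript, the median percentile of cytosolic ribosomal proteins was 65.5, of respiratory chain subunits 89.9, of lens transcription factors 56.7 and of gamma crystallins 99.9, and 21 of the 50 brightest and 42 of the 50 dimmest genes stayed among them. Genes without such a probe set dropped out and could not stay. These values thus mix loss of members with change of level. The ribosomal value covers 23 genes, and the 23 ribosomal proteins without such a probe set had a median level of 12.65. A single-transcript probe set was the brightest for 36.5% of the 200 brightest genes and 88.5% of the 200 dimmest. When the probe sets of each gene were averaged, the values were 98.7 for ribosomal proteins, 59.8 for lens transcription factors, 74.5 for lens epithelium genes and 99.92 for gamma crystallins, and 31 of the 50 brightest and 48 of the 50 dimmest stayed. Averaging also put imprinted growth genes at 66.5, the largest move under it, and Wnt genes at 61.7. The cause was not tested. Leaving out dim probe sets gave correlations of 0.776, 0.840 and 0.949 and a median SD of 0.53; a pseudocount of 16 gave a median SD of 0.27. Leaving out 1 array gave a median SD of 0.21 to 0.38, lens transcription factors at percentile 53.4 to 57.5, beta crystallins at 99.95 to 99.97, gamma crystallins at 99.83 to 99.87, fibre cytoskeleton genes at 95.4 to 97.3, lens epithelium genes at 83.5 to 85.3, ribosomal proteins at 99.1 to 99.3, respiratory chain subunits at 91.6 to 93.7 and olfactory receptors at 9.06 to 11.1; 46 to 49 of the 50 brightest and 29 to 32 of the 50 dimmest genes stayed. Median centring cannot change these ranks by its construction, and quantile normalisation, which RMA already includes, moved no list by more than 0.19 points; neither bears on how stable the ranks are. No paired analysis was possible because a single group was used and no result comes from a test. Signal near the bacterial controls sets the limit at the low end: genes there have no usable order.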
